A study of Mus musculus with 12 samples.

Results

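The aryl hydrocarbon receptor (AHR) and the genes around it were followed in mouse liver tumors deprived of dietary tryptophan (Trp). The 8 genes were taken by name from the 24062 gene rows of each library: the receptor Ahr, its DNA-binding partner Arnt, the repressor Ahrr, and the classical targets Cyp1a1, Cyp1a2, Cyp1b1, Tiparp and Nqo1. The rule that lists them uses no measured value, although it was written with earlier results of these data known. RNA-seq read counts of 12 libraries, one per mouse, fell into 4 groups of 3. The liver libraries came from male FVB mice carrying LAP-tTA, a tetracycline transactivator driven in hepatocytes, and TRE-MYC, a human MYC transgene that was switched on from birth by withdrawal of doxycycline (MYC-ON livers). The labels give an age of 45 days for MYC-ON males, in a sentence on their comparison with wild-type mice, and do not tie it to the mice on these diets. The mouse Myc row does not measure that transgene. The tumor libraries came from HCC53N xenografts. HCC53N is a single line of mouse liver cancer cells that lacks p53, carries mutant NRAS and was grown under the skin of NOD SCID mice (NOD-SKID in the labels), which have no functional T or B cells. The tumors also hold cells of the host. The study's hosts were females, with males in repeats, and the labels do not say which sex these 6 were. The labels call the cells of every group FVB MYC ON. For HCC53N the paper instead names tumors with p53 loss and mutant NRAS as the origin, and no MYC transgene. The reason for this difference was not settled here. In each model, 3 mice ate a complete control diet (livers 101, 102 and 103, xenografts 40, 41 and 43) and 3 ate the No-Trp diet, which lacks Trp (livers 105, 107 and 108, xenografts 35, 36 and 37), for 21 days.

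AHR rests in the cytoplasm with the HSP90 chaperones. Ligands, among them dioxins, dietary indoles and the Trp products kynurenine and indole 3-pyruvate, release it into the nucleus, where it pairs with ARNT and binds the xenobiotic response element, whose core is GCGTG. The cytochromes P450 of family 1 (Cyp1a1, Cyp1a2 and Cyp1b1) oxidize many of these ligands, and AHRR and TIPARP shut the receptor down again. In normal liver Cyp1a2 is a constitutive gene of hepatocytes near the central vein, while Cyp1a1 is nearly silent until a ligand arrives. Nqo1, a quinone reductase, answers to AHR and also to NRF2, the oxidative stress factor, which binds the antioxidant response element (core TGACNNNGC).

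The genes lie on separate chromosomes except for 2 pairs (GRCm38, GENCODE M21). Ahr is at chr12:35497974-35535038, Ahrr at chr13:74211118-74292331, Cyp1b1 at chr17:79701537-79715061 and Nqo1 at chr8:107388225-107403206, each on the minus strand. Arnt is at chr3:95434388-95497240 and Tiparp at chr3:65528410-65555518, each on the plus strand. Cyp1a1 (chr9:57687928-57703824, plus) and Cyp1a2 (chr9:57676937-57683703, minus) stand head to head, with starts 14.0 kb apart in RefSeq. Ahr overlaps the noncoding gene Gm48236 on the other strand, Tiparp the pseudogene 4931440P22Rik, and Arnt the pseudogene Gm42672 on its own strand. The strand setting of the counting was not stated, so reads of such partners cannot be told apart.

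RefSeq promoters were at hand for 7 of the 8 genes, all but Ahr. In the 250 bases before the start, GCGTG was found on either strand of 28.2% of 32851 promoters. It occurred 3 times before Ahrr, once each before Cyp1a1, Cyp1b1, Arnt and Tiparp, and not before Cyp1a2 or Nqo1. TGACNNNGC was found in 10.2% of promoters, and among the 7 only before Arnt, where it occurred 2 times. The repressor's promoter is shown for its 3 cores, those of Cyp1a1 and Cyp1b1 for the single core of inducible targets, and that of Nqo1 because the gene moved most with diet and its window held neither motif. Each runs 5′ to 3′ on the strand of its gene with motif letters in capitals (GCGTG, or CACGC where the match is on the other strand). They are chr13:74292332-74292581 for Ahrr (minus), chr9:57697363-57697612 for Cyp1a1 (plus), chr17:79715062-79715311 for Cyp1b1 (minus) and chr8:107403206-107403455 for Nqo1 (minus), in GRCm38.
Ahrr: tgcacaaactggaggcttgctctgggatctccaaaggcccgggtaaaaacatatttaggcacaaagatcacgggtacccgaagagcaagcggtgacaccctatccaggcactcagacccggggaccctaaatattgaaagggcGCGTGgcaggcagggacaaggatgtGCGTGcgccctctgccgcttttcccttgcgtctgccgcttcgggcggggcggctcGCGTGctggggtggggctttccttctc
Cyp1a1: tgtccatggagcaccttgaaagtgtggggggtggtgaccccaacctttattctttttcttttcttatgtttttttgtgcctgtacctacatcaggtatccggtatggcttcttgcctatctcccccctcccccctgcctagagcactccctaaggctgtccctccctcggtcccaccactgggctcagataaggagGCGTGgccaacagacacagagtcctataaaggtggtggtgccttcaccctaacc
Cyp1b1: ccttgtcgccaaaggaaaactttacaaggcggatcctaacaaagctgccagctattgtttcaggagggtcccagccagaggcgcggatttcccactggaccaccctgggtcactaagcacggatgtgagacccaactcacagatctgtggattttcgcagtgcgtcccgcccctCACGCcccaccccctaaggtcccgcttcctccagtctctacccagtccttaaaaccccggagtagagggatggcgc
Nqo1: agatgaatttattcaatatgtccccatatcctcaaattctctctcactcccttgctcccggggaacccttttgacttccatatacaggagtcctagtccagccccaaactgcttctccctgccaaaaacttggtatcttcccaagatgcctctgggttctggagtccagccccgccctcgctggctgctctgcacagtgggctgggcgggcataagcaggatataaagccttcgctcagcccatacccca
A match of these letters is a description and not a measured binding site, and elements outside this window were not searched.

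Before the results, the libraries were checked. Reads on genes ranged from 14660963 to 26085349 per library, and replicate libraries differed with a chi-square of 36.8 to 291 per degree of freedom. Levels are given as CPM, the reads of a gene scaled to a common library size by TMM factors. The 10 hepatocyte markers summed to 16400 to 54600 CPM in the control livers, 65900 to 163000 CPM in the No-Trp livers and 1220 to 3510 CPM in the xenografts, with none of them at 0. In the xenografts all 10 were lower than in the livers on the matching diet, and Alb, the gene of serum albumin, had 236 ± 142 CPM on the control diet (SD, n = 3). The bile duct marker Sox9 stood at 141 ± 22.7 CPM there, against 4.16 ± 1.11 CPM in the control livers. Hepatocyte transcripts were thus present but low in the tumors. In whole tissue, fewer cells of a type and less RNA per cell cannot be told apart. Ddx3y, on chromosome Y, had 77.3 ± 3.56 CPM in the control livers and 0.821 ± 0.268 CPM in the control xenografts. Without Trp it had 110 ± 19.8 and 0.981 ± 0.340 CPM. Xist, the RNA of the silenced X chromosome, had 9.54 ± 1.22 and 115 ± 54.9 CPM on the control diet. Without Trp it had 10.8 ± 3.29 and 139 ± 70.5 CPM. The tumor values mix HCC53N and host cells. Libraries of livers 101 and 108 and of control xenografts 41 and 43 carry a mark of resubmission, and the count table of control xenograft 40 has a name unlike the others, so its diet was taken only from its label.

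The first comparison asked how Trp deprivation changed the receptor and its targets in MYC-ON livers. Ahr and Nqo1 rose, the other 5 tested genes did not pass the test, and Ahrr was too low to test. A call needed an adjusted p no higher than 0.05 in edgeR's quasi-likelihood test and a change of at least 1, up or down, on the log2 scale. By that rule 2 of 7 tested members were called, both higher, against 16.5% of all 14122 genes tested in either direction and 9.28% called higher. In 5 of the 8 (Ahr, Arnt, Cyp1b1, Tiparp and Nqo1) every No-Trp liver stood above every control liver, as it did for 23.6% of all genes tested. The log2 fold change was above 0 for all 7 tested members, with a median of 0.76 beside 0.00 over all genes.

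Ahr, the receptor itself, had 16.8, 24.7 and 19.2 CPM in control livers 101, 102 and 103, and 50.2, 54.3 and 56.4 CPM in No-Trp livers 105, 107 and 108. The groups were far apart and each was tight. The rise was 2.68-fold (log2 1.42 ± 0.19 SE, adjusted p = 0.0136). With the mark of resubmission as a covariate it was 1.43 (adjusted p = 0.0181). Without liver 103 the size held at 1.38 but the adjusted p was 0.0833. Without that mouse 8 genes in all were called, against 2337 with it.

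Arnt, the partner that AHR shares with the hypoxia factors, had 39.1, 59.7 and 53.2 CPM in the control livers and 70.9, 110 and 73.1 CPM in the No-Trp livers. Liver 107 stood above the rest. The log2 difference of 0.76 ± 0.24 did not pass (adjusted p = 0.0555). Of the other genes of the receptor complex and its coactivators, 10 were tested and 1 was called, against 16.5% of all genes tested. Hsp90aa1, the inducible HSP90 chaperone, fell from 1530 ± 74.4 to 514 ± 154 CPM (log2 -1.56 ± 0.28, adjusted p = 0.0195).

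Ahrr, the repressor, held between 2 and 9 reads in each of the 12 libraries, whatever the model or diet. The livers had 7, 2 and 3 reads on the control diet and 9, 2 and 3 reads without Trp. The xenografts had 2, 4 and 4 and then 9, 2 and 8 reads. It was near the limit of detection in every group, and a difference was not detectable at this depth.

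Among the cytochromes, Cyp1a1 was nearly silent in the livers. It had 7, 12 and 9 reads in the control livers and 14, 23 and 7 reads in the No-Trp livers, or 0.338 to 0.676 and 0.544 to 1.41 CPM. The groups overlapped, and the log2 difference of 1.05 ± 0.53 did not pass (adjusted p = 0.178). Cyp1b1, an extrahepatic family member that also acts on estrogens, was low but steady. It had 2.32, 3.21 and 3.08 CPM on the control diet and 3.49, 4.43 and 3.73 CPM without Trp, with no overlap but a small difference (log2 0.45 ± 0.29, adjusted p = 0.268).

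Cyp1a2 had the highest group mean per length in the livers and the widest spread, and in livers 103 and 108 other members stood above it per length. The control livers had 17.8, 227 and 9.78 CPM, and the No-Trp livers had 141, 173 and 15.1 CPM. Livers 102, 105 and 107 were thus high and livers 101, 103 and 108 low, and neither set was one diet. The log2 difference was 0.40 ± 1.27 (adjusted p = 0.834), it fell below 0 without liver 101 (-0.08), 103 (-0.15) or 107 (-0.11), and it was 3.0 without liver 102. The 12 pericentral genes summed to 588, 4050 and 690 CPM in livers 101, 102 and 103 and to 4750, 8600 and 4090 CPM in livers 105, 107 and 108. The 3 livers high for Cyp1a2 had at least 4050 CPM of these genes, but so did liver 108, where Cyp1a2 was low. Per 1000 CPM of summed hepatocyte markers, a ratio chosen after the values were seen, Cyp1a2 stood at 0.947, 4.16 and 0.596 CPM in the control livers and 1.71, 1.06 and 0.229 CPM in the No-Trp livers. The low value of liver 108 therefore stood out further against its hepatocyte markers. The part of hepatocyte content in the level of Cyp1a2 was not tested.

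**Figure D1:**
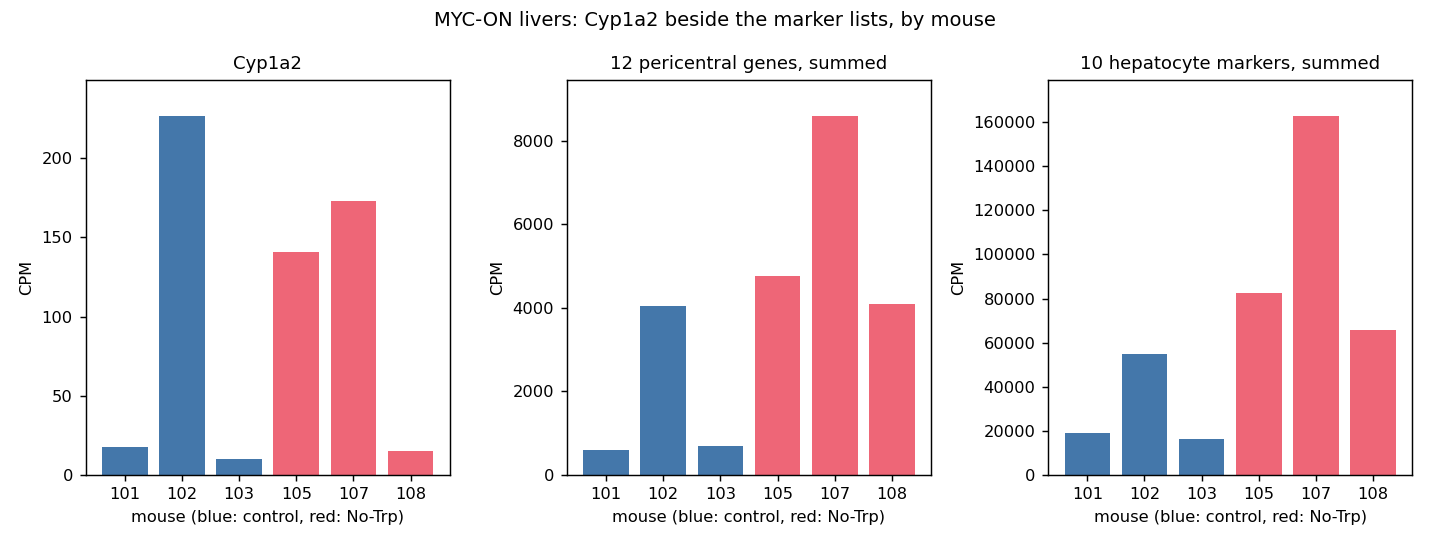
Bars give the CPM of Cyp1a2 (left), of 12 pericentral genes summed (middle) and of 10 hepatocyte markers summed (right) in each MYC-ON liver, with control mice in blue and No-Trp mice in red. Cyp1a2 is 15.1 CPM in liver 108, where the pericentral genes reach 4090 CPM.

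Tiparp, the ADP-ribosyltransferase that marks AHR for loss, had 12.7, 9.52 and 14.9 CPM in the control livers and 21.0, 22.9 and 17.9 CPM in the No-Trp livers. The groups did not overlap, and the log2 difference of 0.75 ± 0.24 did not pass (adjusted p = 0.0547).

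Nqo1 moved most of the 8. It had 37, 46 and 32 reads in control livers 101, 102 and 103 and 265, 316 and 373 reads in No-Trp livers 105, 107 and 108. In CPM these were 1.79, 2.59 and 1.28 against 15.2, 19.4 and 29.0. The lowest No-Trp liver was thus well above the highest control liver. The rise was 11.4-fold (log2 3.51 ± 0.38, adjusted p = 0.0110), and without liver 103 it was 3.28 with an adjusted p of 0.0784. Per 1000 CPM of hepatocyte markers, Nqo1 was 0.0952, 0.0474 and 0.0780 CPM in the control livers and 0.184, 0.119 and 0.440 CPM in the No-Trp livers, which still did not overlap. For Ahr the same ratio did overlap, at 0.894, 0.452 and 1.17 CPM against 0.608, 0.333 and 0.856 CPM. It overlapped for Arnt, Tiparp and Ahrr too. For Cyp1b1 it was lower without Trp with no overlap, at 0.123, 0.0588 and 0.188 CPM against 0.0423, 0.0272 and 0.0566 CPM. Cyp1a1, at few reads, was likewise lower, at 0.018, 0.0124 and 0.0219 CPM against 0.0097, 0.00865 and 0.00825 CPM. The marker sum that divides these values itself rose, from 16400 to 54600 CPM in the control livers to 65900 to 163000 CPM without Trp. A gene of steady level is therefore lower in this ratio. The share of all genes without overlap in it was not computed, so no conclusion is drawn from these ratios.

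**Figure D2:**
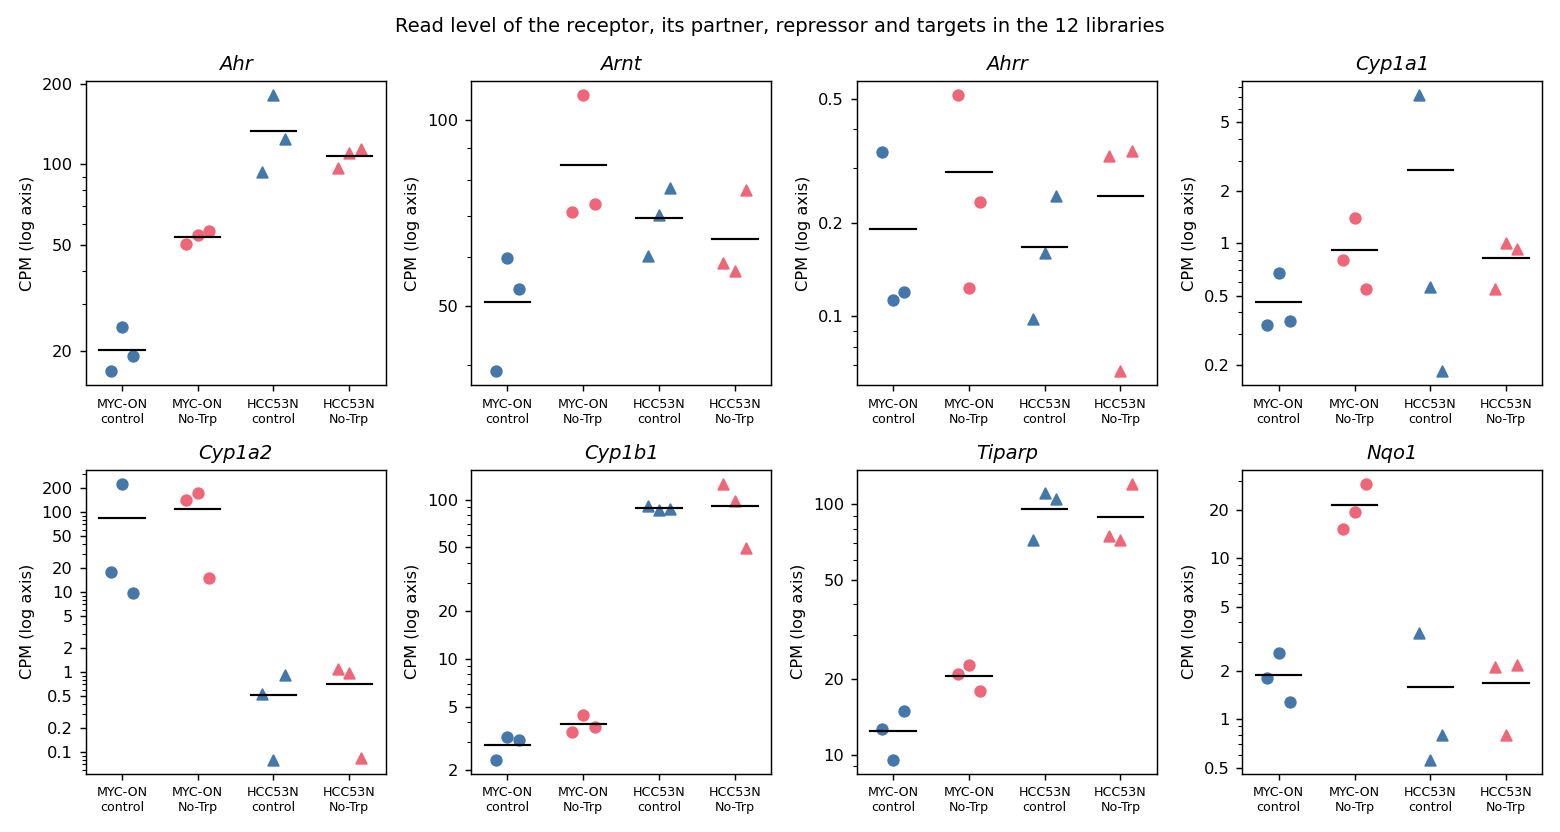
Points give the CPM of each gene in each library on a log axis, grouped by model and diet (circles, MYC-ON livers; triangles, HCC53N xenografts; blue, control; red, No-Trp), and the line is the mean of 3 mice. Ahr and Nqo1 separate the 2 liver groups most widely, and the xenograft groups overlap for all 8 genes.

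Genes around the receptor were read from lists in the same livers. Of 17 other genes listed as AHR targets (Nfe2l2 and Ido1, also read below, among them), 16 were tested, 4 rose and 1 fell. By edgeR 16.5% of all genes tested were called. DESeq2 called 8 of the list, and its share over all genes in the livers is not given for this or the later lists. The median log2 change was 0.88 beside 0.00 over all genes. Ugt1a6a and Ugt1a6b, phenol glucuronidases, rose from 5.70 ± 1.91 to 25.2 ± 3.65 CPM (log2 2.16, adjusted p = 0.0136) and from 6.12 ± 2.26 to 20.7 ± 2.22 CPM (1.78, adjusted p = 0.0191). They share their last exons with other genes of the Ugt1a cluster, so how reads were divided among these genes is uncertain. Ugdh, which makes the glucuronic acid donor, rose from 110 ± 12.4 to 292 ± 149 CPM (log2 1.43, adjusted p = 0.0310). Fgf21, a fasting hormone that also answers to amino acid stress, rose from 0.918 ± 0.290 to 16.0 ± 4.77 CPM (log2 4.14, adjusted p = 0.00713). Umps, of pyrimidine synthesis, fell from 233 ± 32.0 to 103 ± 29.8 CPM (log2 -1.16, adjusted p = 0.0224). The other classical targets Aldh3a1 (log2 0.70, adjusted p = 0.451) and Gsta1 (1.28, adjusted p = 0.321) did not pass.

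Enzymes that turn Trp into AHR ligands or their neighbours were also read. Of 13 enzymes, 11 were tested and 2 rose (DESeq2 called 3), with a median of 0.95. That share is close to the 16.5% of all genes called. Tdo2, the hepatic enzyme that opens the Trp ring, rose from 137 ± 182 to 2370 ± 521 CPM (log2 4.14 ± 1.05, adjusted p = 0.0342). Afmid, which acts next and yields kynurenine, rose from 32.0 ± 24.2 to 144 ± 76.2 CPM (log2 2.19 ± 0.60, adjusted p = 0.0400). Afmid overlaps the replication gene Tk1 on the other strand. Il4i1, the amino acid oxidase that makes indole 3-pyruvate, was too low to test, at 0.00 CPM in all 3 control livers and 0.160 ± 0.154 CPM in the No-Trp livers. It overlaps Nup62 on its own strand and Atf5 and Tbc1d17 on the other, so reads shared with these genes may not have been counted.

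Because Nqo1 also answers to NRF2, 15 other genes listed as NRF2 targets were read. Of these 14 were tested, 5 rose and 1 fell (DESeq2 called 7), with a median of 0.75. By edgeR 16.5% of all genes tested were called. Ephx1, an epoxide hydrolase, rose from 64.7 ± 66.8 to 550 ± 109 CPM (log2 3.11, adjusted p = 0.0294). Me1, a source of NADPH, rose from 57.7 ± 34.1 to 309 ± 23.1 CPM (log2 2.44, adjusted p = 0.0196). The other 3, named after their values were seen, were Gstm1 (2.33), Srxn1 (1.72) and Gclc (1.56). G6pdx, which opens the pentose phosphate pathway, fell from 87.9 ± 9.92 to 32.4 ± 11.6 CPM (log2 -1.43, adjusted p = 0.0216). The stress gene Hmox1 was at 47.1 ± 19.8 and 42.0 ± 7.76 CPM (log2 -0.15), and the mRNA of NRF2, Nfe2l2, at 87.5 ± 10.3 and 104 ± 8.95 CPM (log2 0.27, adjusted p = 0.228).

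**Figure D3:**
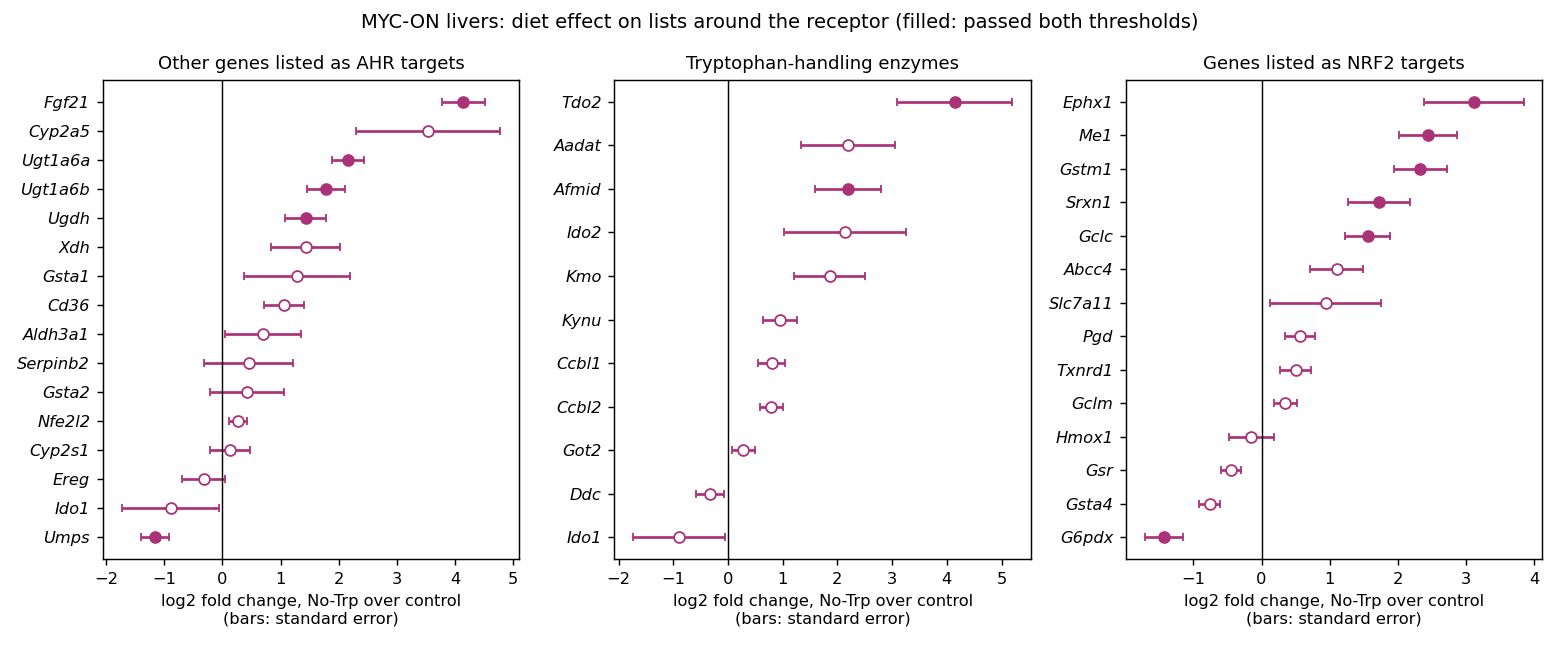
Points give the log2 fold change of No-Trp over control diet in MYC-ON livers, with the standard error, for tested genes listed as AHR targets (left), Trp-handling enzymes (middle) and NRF2 targets (right), and filled points passed both thresholds. Fgf21 and Tdo2 lie furthest to the right, each at 4.14.

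Markers of cell content moved in the same livers, where 16.5% of all genes tested were called. All 10 hepatocyte markers had a log2 fold change above 0 and 5 were called higher, with a median of 1.73, among them Tat (4.43) and Ahsg (2.7). Of the 12 pericentral genes all were above 0 and 1 was called, Lhpp (2.31). Of the 9 periportal genes tested, 6 rose, among them Arg1 (2.90) and Hal (2.68), and 1 fell, Cdh1 (-1.44). All 6 proliferation genes fell, Mki67 by 2.39 and Top2a by 2.32 on the log2 scale. Of 6 erythroid genes 5 fell, among them Slc4a1 (-5.53) and Rhag (-5.48). The part of these shifts in the rise of Ahr and Nqo1 was not tested.

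The second comparison asked the same of the xenografts. None of the 7 tested members was called by edgeR, against 0.360% of 14704 genes tested. None had an unadjusted p under 0.05 in that test, against 2483 of the 14704 genes. DESeq2 called none of the members either. For all 8 genes the diets overlapped, whereas for 22.6% of genes tested they did not. Ahr had 93.6, 182 and 124 CPM in control xenografts 40, 41 and 43 and 97.0, 110 and 114 CPM in No-Trp xenografts 35, 36 and 37. The No-Trp values lay inside the control range (log2 -0.33 ± 0.23, adjusted p = 0.516). Arnt had 60.2, 70.2 and 77.6 against 58.6, 57.0 and 77.0 CPM (log2 -0.12 ± 0.18).

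Cyp1b1 had 91.3, 85.9 and 87.2 CPM in the control xenografts and 126, 97.4 and 49.3 CPM in the No-Trp xenografts. The control tumors were alike and the No-Trp tumors spread on either side of them (log2 0.03 ± 0.29). Tiparp had 72.1, 111 and 105 against 74.6, 72.1 and 121 CPM (log2 -0.11 ± 0.25). Cyp1a2 was barely detected, at 11, 2 and 15 reads against 30, 29 and 2 reads (log2 0.52 ± 0.96). In each diet group 1 tumor held 2 reads.

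In Cyp1a1 and Nqo1 control xenograft 40 stood apart. Cyp1a1 had 147 reads there, 14 and 3 in control tumors 41 and 43, and 15, 30 and 22 in the No-Trp tumors, so the log2 difference of -1.69 ± 1.16 became 1.08 ± 0.71 without that tumor. Nqo1 had 70 reads there, 14 and 13 in the other control tumors, and 58, 24 and 51 in the No-Trp tumors. Its log2 difference was 0.07 ± 0.73 with that tumor and 1.31 without it, and neither passed. The hepatocyte markers of that tumor summed to 3510 CPM, the highest of the 6 tumors, beside 1540 and 1330 CPM in the other control tumors. In No-Trp tumors 35, 36 and 37 they summed to 3000, 2580 and 1220 CPM. Their part in the values of Cyp1a1 and Nqo1 was not tested. Of 5 skin and adipose markers 2 rose without Trp in the same tumors, Plin1 (log2 5.48, adjusted p = 0.00956) and Adipoq (4.70, adjusted p = 0.0299), both genes of fat cells. The 5 summed to 50.4, 71.5 and 179 CPM in the control tumors and to 286, 268 and 430 CPM in the No-Trp tumors, and their part in the values of the members was not tested. Among genes listed as AHR targets, 0 of 14 tested were called by edgeR in the xenografts, 3 had an unadjusted p under 0.05, and DESeq2 called 1 (median log2 change 0.29 beside 0.00). Of the Trp-handling enzymes 0 of 12 were called by edgeR, 0 had an unadjusted p under 0.05 and DESeq2 called 0 (median 0.23). Of the NRF2 targets 0 of 14 were called by edgeR, 4 had an unadjusted p under 0.05 and DESeq2 called 1 (median 0.09). Of all 14704 genes tested by edgeR, 2483 had an unadjusted p under 0.05 and 0.360% were called.

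**Figure D4:**
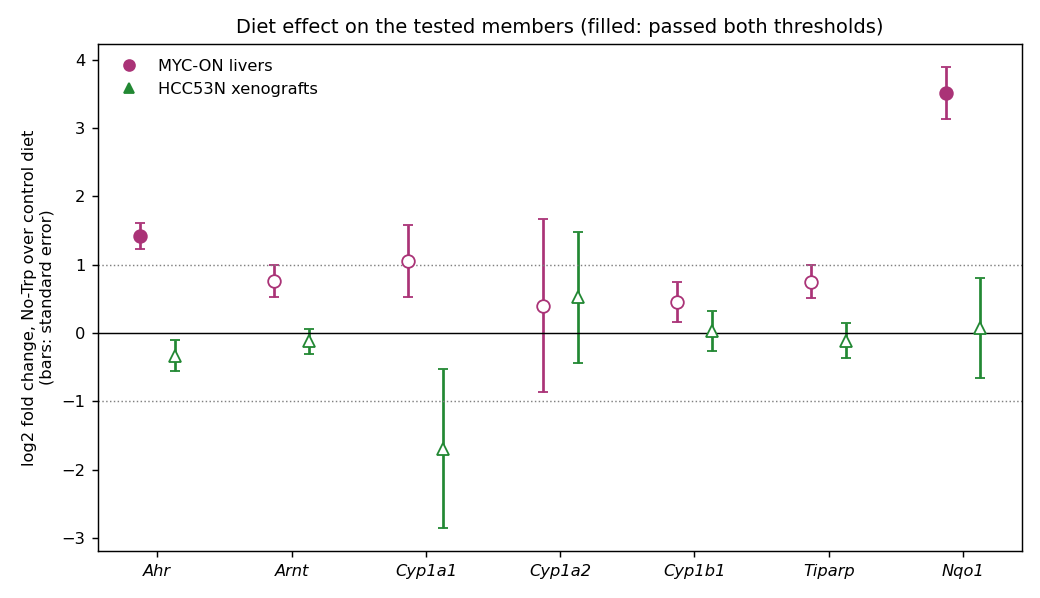
Points give the log2 fold change of No-Trp over control diet with its standard error for the 7 tested genes, in MYC-ON livers (circles) and HCC53N xenografts (triangles), filled where both thresholds were passed and with dotted lines at a log2 change of 1 in either direction. Only Ahr (1.42) and Nqo1 (3.51) in the livers are filled.

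The third comparison tested whether the diet effect differed between the models, by the interaction term over all 12 libraries. It differed for 2 of 7 tested members, Ahr and Nqo1, against 12.7% of 15472 genes tested. For Ahr the effect in the xenografts was lower by 1.72 ± 0.31 than in the livers on the log2 scale (-1.72, adjusted p = 0.00893), and leaving out each library in turn moved this between -1.92 and -1.43. For Nqo1 the difference was -3.42 ± 0.88 (adjusted p = 0.0257). That call was lost without liver 101 (-3.38, adjusted p = 0.0519), without liver 103 (-3.20, adjusted p = 0.0681), without xenograft 40 (-2.17, adjusted p = 0.0631) and without xenograft 36 (-3.08, adjusted p = 0.0548). Tiparp (-0.83 ± 0.35, adjusted p = 0.119) and Arnt (-0.85 ± 0.31, adjusted p = 0.0767) did not pass, though Tiparp did without xenograft 37 (-1.11, adjusted p = 0.0493). Cyp1a1 had -2.70 ± 1.42 (adjusted p = 0.213) and 0.07 without xenograft 40. Cyp1b1 (-0.39 ± 0.40) and Cyp1a2 (0.25 ± 1.96) did not pass either. Among the listed genes the effect was lower in the xenografts for Tdo2 (-4.84, adjusted p = 0.0253) and Fgf21 (-3.13, adjusted p = 0.0237) and higher for Umps (1.39, adjusted p = 0.0177) and Hsp90aa1 (1.71, adjusted p = 0.0120). Of the 14 NRF2 targets tested, it was lower for Gstm1 (-2.86, adjusted p = 0.0245), Me1 (-2.29, adjusted p = 0.0306) and Srxn1 (-1.70, adjusted p = 0.0426) and higher for G6pdx (1.84, adjusted p = 0.00837).

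The last comparisons set the models side by side on each diet. These comparisons share their libraries with the diet comparisons. On the control diet 5 of 7 tested members were called, against 43.5% of 15472 genes, and on the No-Trp diet 4 of 7, against 43.7%. Model, sex, host strain and site cannot be told apart here. Cyp1b1 was 30.7-fold higher in the xenografts on the control diet (log2 4.94 ± 0.32, adjusted p = 1.38e-07) and 23.3-fold higher without Trp (4.54 ± 0.31, adjusted p = 2.10e-07). Tiparp was 7.71-fold higher (2.95 ± 0.26, adjusted p = 1.60e-06) and 4.33-fold higher (2.11 ± 0.25, adjusted p = 1.90e-05). Ahr was 6.58-fold higher on the control diet (2.72 ± 0.23, adjusted p = 1.24e-06). Without Trp it was 1.99-fold higher (0.99 ± 0.22, adjusted p = 0.00206), just under the fold threshold, with no overlap between the groups.

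Fibroblast and stellate markers moved in the same comparisons. Of 9, on each diet 5 were called higher in the xenografts (Col1a1, Col1a2, Col3a1, Pdgfra and Pdgfrb) and 1 lower (Lrat), with medians of 1.44 and 1.57. Over all genes tested, 43.5% were called in either direction on the control diet and 43.7% without Trp. The 9 summed to 661 to 878 CPM in the livers and 1160 to 5470 CPM in the xenografts, with none at 0, and their part in the levels of Cyp1b1, Tiparp and Ahr was not tested.

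Cyp1a2 went the other way. Its log2 difference was -7.47 ± 1.57 on the control diet (adjusted p = 0.00166) and -7.21 ± 1.49 without Trp (adjusted p = 0.00146), as the livers held 194 to 4024 reads and the xenografts 2 to 30. Nqo1 did not pass on the control diet (-0.23 ± 0.62, adjusted p = 0.765), where it was called lower without xenograft 40 (-1.48, adjusted p = 0.0354). It was lower in the xenografts without Trp (-3.65 ± 0.65, adjusted p = 0.000429). Cyp1a1 was called higher in the xenografts on the control diet (2.54 ± 1.03, adjusted p = 0.0495), but the groups overlapped and the difference was -0.24 without xenograft 40. Of the other 11 libraries, only control xenografts 41 and 43 could be left out with the call kept. It was -0.16 ± 0.99 on the No-Trp diet. Arnt passed on neither diet (0.45 ± 0.22 and -0.40 ± 0.22).

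Per kilobase of exon, the order of the members differed between the models. In the control livers Cyp1a2 led (42.1 ± 61.1 CPM per kb), followed by Arnt (6.33 ± 1.31), Ahr (3.28 ± 0.656), Tiparp (2.85 ± 0.625), Nqo1 (1.21 ± 0.427), Cyp1b1 (0.491 ± 0.0826), Cyp1a1 (0.164 ± 0.0680) and Ahrr (0.0201 ± 0.0136). Ahr and Tiparp did not differ beyond their spread there, and Cyp1a2 spanned its neighbour's values. In the control xenografts Tiparp (22.0 ± 4.75) and Ahr (21.6 ± 7.27) led without differing beyond their spread, then came Cyp1b1 (15.1 ± 0.484), Arnt (8.66 ± 1.09), Nqo1 (1.03 ± 1.03), Cyp1a1 (0.951 ± 1.42), Cyp1a2 (0.254 ± 0.208) and Ahrr (0.0177 ± 0.00775). Ahr and Cyp1b1 did not differ beyond their spread there, nor did Nqo1, Cyp1a1 and Cyp1a2. For Ahr the order of groups was control xenografts, No-Trp xenografts (17.3 ± 1.42), No-Trp livers (8.71 ± 0.511) and control livers, and only the xenograft groups overlapped. Cyp1a2 reached 54.4 ± 41.4 CPM per kb in the No-Trp livers, and Nqo1 13.6 ± 4.56, next to Arnt at 10.6 ± 2.74.

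Other genes listed as AHR targets also split by model. On the control diet 5 of 17 were called higher in the xenografts and 9 lower, against 43.5% of all genes called in either direction. The median log2 difference was -1.20 beside 0.01 over all genes. Without Trp 5 were higher and 7 lower, against 43.7% of all genes, with a median of -0.38 beside 0.15. The higher ones on the control diet were Aldh3a1 (6.95), an aldehyde dehydrogenase, the growth factor gene Ereg (4.50), and Scin (4.74), Cyp2s1 (2.64) and Ugdh (1.32). The lower ones ranged from Gsta2 (-6.58) and Cyp2a5 (-4.41) to Ugt1a6a (-1.20) and included Gsta1, Ugt1a6b, Fgf21, Cd36, Umps and Xdh. Of the 12 Trp-handling enzymes tested, 10 were lower in the xenografts on the control diet, where 43.5% of all genes were called in either direction. They ranged from Kynu (-6.14) and Kmo (-5.57) to Afmid (-1.61), and Tph1 (5.31), of serotonin synthesis, was higher. The other lower ones were Ccbl1 (-4.49), Tdo2 (-3.51), Aadat, Ido2, Got2, Ccbl2 and Ddc.

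The genes whose log2 CPM followed each member most closely over the 12 libraries, after the mean of each model was removed, were named from 13480 genes tested in both models. This is a description, and the points share depth and cell content. Fam151b and Shoc2 were among the 3 closest to Ahr (Pearson's r 0.97 each), and closest to Nqo1 were Fth1 (0.97), the ferritin heavy chain, Cbr1 (0.96), a carbonyl reductase, and Rab1b (0.94). Arnt was followed by Rgs16 (0.98), Adipor1 and Mapkapk2 (0.96 each). Cyp1a2 was followed by Ces2a (0.96), a liver carboxylesterase, Slco1a1 (0.94), a hepatocyte uptake carrier, and Itih1 (0.94), a plasma protein. Cyp1b1 was followed by Tbk1 (0.94), Mmp19 (0.90) and Chmp3 (0.89), Tiparp by C030046E11Rik, Rbm7 and Vps11 (0.90 each), and Cyp1a1, at few reads, by Pcbd2, Sema4a and Lman2 (0.92 each). The log2 CPM of Cyp1a1 was 2.87 in control xenograft 40 and -1.85 to 0.13 in the other tumors. That single library thus carries much of the Cyp1a1 pattern.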

How the data were processed

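Polyadenylated RNA from 12 mice was sequenced by a commercial provider. The deposited values are whole read counts per gene symbol, which the authors made with Trim Galore, STAR 2.7.2b (mm10), SAMtools 1.9 and HTSeq, and no normalization was applied. The strand setting and the handling of overlapping genes were not given in the sources used here. Reads that the counting left out, 24.7% to 39.4% of each library, were kept out of library sizes. The ribosomal RNA Rn45s held 12.1% of gene reads in control liver 101, 2.22% in control liver 102 and 0.261% to 0.758% in the rest.

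In R 4.3.3, low genes were removed with filterByExpr and libraries scaled by TMM, and edgeR 4.0.16 fitted the counts (glmQLFit, robust) and tested them on both sides (glmQLFTest), within each model for the diets and over all 12 libraries for the interaction and the models. Benjamini-Hochberg adjustment ran across every tested gene. The standard error is the log2 fold change divided by the square root of F. The thresholds for a call were 0.05 for the adjusted p and 1 for the size of the log2 fold change, as in the study. The mice are separate animals. An exact permutation test of 3 against 3 mice cannot go below p = 0.1 and was not used. The spread between mice was 31.6% in the livers and 28.7% in the xenografts, beside which counting error matters only for genes of few reads, such as Ahrr and Cyp1a1.

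All 8 members were named in every comparison. Of other lists, the 2 largest called changes in each direction with a mean count of at least 100 were named, and every called AHR target and Trp-handling enzyme in the livers. The members and lists were chosen with earlier results of these data known. Motifs were searched on both strands of RefSeq promoters (GRCm38.p6). Alternatives were RLE factors, library totals, no filter, at least 10 counts in every library, DESeq2 1.42.0, no fold threshold, resubmission as a covariate, other sets of libraries, leaving out each library, the longest transcript as the length and a prior count of 0.5 in place of 2. The fits were tested on simulated data. Wild-type livers were not analysed here, and some genes of these lists are not reported here.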

Additional observations from a re-analysis of the deposited data

Results flagged for a closer look

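The diet effect differed between the models for 2 members by the interaction term of edgeR over all 12 libraries. For Ahr the effect in the xenografts minus that in the livers was -1.72 on the log2 scale (SE 0.31, adjusted p = 0.00893), from 1.42 in the livers and -0.33 in the xenografts. All 3 No-Trp livers were above all 3 control livers, while the No-Trp xenografts lay within the control range. For Nqo1 it was -3.42 (SE 0.88, adjusted p = 0.0257), from 3.51 in the livers and 0.07 in the xenografts. The reads of Nqo1 in the xenografts were few, at 13 to 70 per library. The hepatocyte markers, whose median log2 change was 1.73 in the livers and -0.26 in the xenografts, and the proliferation genes, at -2.06 and 0.49, stood beside these differences, and their part in them was not tested. Single libraries were not tested as outliers in these groups of 3.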

How the results depend on the processing

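In the livers the calls of Ahr and Nqo1 held under every alternative but one. Under all 14 alternatives Ahr ranged from 1.13 to 1.57 (adjusted p up to 0.0833) and Nqo1 from 3.23 to 3.79 (adjusted p up to 0.0784), and the call of each was lost only without liver 103, so the members called ranged from 0 to 2. All genes called in the livers ranged from 8 (without liver 103) to 3207 (without liver 102) and numbered 3570 without a fold threshold. Library totals moved the median of all genes from 0.00 to -0.30 in the livers, where 732 genes were then higher and 1532 lower (1311 and 1026 with TMM). They moved it from 0.03 to 0.41 for the interaction (1825 and 437, against 1036 and 930), from 0.01 to 0.17 between the models on the control diet and from 0.15 to 0.68 without Trp (5797 and 2024, against 3796 and 2959). In the xenografts 53 genes were called, 82 with RLE factors, 118 without a filter, 15 with at least 10 counts everywhere, 380 with DESeq2, 4 with resubmission as a covariate, 23 in one fit over all libraries and 9 to 78 when leaving out a library, but no member in any. Library totals gave 60 higher and 11 lower there (36 and 17 with TMM). With resubmission as a covariate, where the diet contrast rests on control xenograft 40 alone, the xenograft values turned sign for Ahr (0.18), Arnt (0.09), Cyp1b1 (-0.02), Tiparp (0.30) and Nqo1 (-1.03). Leaving out single libraries there gave -2.23 to 1.08 for Cyp1a1, -0.02 to 1.23 for Cyp1a2, -0.26 to 0.33 for Cyp1b1, -0.39 to 0.03 for Tiparp and -0.34 to 1.31 for Nqo1, and -0.15 to 3.0 for Cyp1a2 in the livers. For the interaction, leaving out a library gave 916 to 2571 genes, 1 to 3 members called, -3.25 to 0.07 for Cyp1a1 and -2.36 to 0.94 for Cyp1a2, for which DESeq2 gave -0.01 and the covariate -1.12, and library totals gave 0.02 for Cyp1b1. Between the models on the control diet, 3 members were called with at least 10 counts everywhere, where Cyp1a1 and Cyp1a2 were not tested. Leaving out a library gave 4 or 5 members, -0.24 to 3.08 for Cyp1a1 and -1.48 to 0.19 for Nqo1. The call of Cyp1a1 was also lost with RLE factors, no filter and only the 6 libraries compared. Without Trp, library totals turned Arnt to 0.17 and Cyp1a1 to 0.41, and leaving out a library gave -0.42 to 0.26 for Cyp1a1. Ahr was called there under 7 of 20 alternatives, among them the alternative without a fold threshold, where its value stayed at 0.99. In all, 537 of 600 alternative values of single members kept direction and call, and the causes of the other changes were not tested. With the longest transcript as the length, Arnt stood at 11.7 CPM per kb in control livers, and Ahr and Tiparp changed places in control xenografts. With a prior count of 0.5, 2 of the 3 genes closest to Cyp1a2 remained, and all 3 for each other member. No paired analysis was possible because the groups share no mouse numbers. Depth limits Ahrr and Cyp1a1 in every group and Cyp1a2 in the xenografts.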
